A study of Mus musculus with 12 samples.

Results

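The clustered replication-dependent histone genes of the mouse were followed across Hepa1 hepatoma cells and primary mouse embryonic fibroblasts (MEFs). They were taken as the protein-coding genes whose GENCODE M21 symbol begins with Hist1h, Hist2h, Hist3h or Hist4h. This gave 67 genes of the 55487 in the count table, and 3 further genes with such symbols were annotated as pseudogenes and left out. The Hist1 cluster on chromosome 13 held 54 of them, the Hist2 cluster on chromosome 3 held 10, Hist3 on chromosome 11 held 2 and Hist4 on chromosome 6 held 1. By product they were 6 linker histone H1 genes, 18 H2A, 18 H2B, 12 H3 and 13 H4 genes.

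H2A, H2B, H3 and H4 form the core particle that DNA is wrapped around, and H1 binds the linker DNA where it enters and leaves that particle. Clustered histone genes are transcribed mainly in S phase, when newly copied DNA is packed. Their usual messenger RNA has no introns and no poly(A) tail. It ends just after a short stem-loop that is bound by SLBP, although polyadenylated forms that read past the stem-loop are known from differentiated and arrested cells.

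There were 4 groups of 3 libraries each. Hepa1 cells, an established hepatoma line labelled wild type, and primary MEFs of genotype Bach1-/- each grew in medium from ferroptotic cells or in medium from control cells. Per the labels' protocols the medium had been conditioned for 48 h by immortalised MEFs, and in the ferroptotic case those MEFs had Bach1 put back. All groups received 10% fetal bovine serum, 0.1 mM 2-mercaptoethanol and 0.4 mg/mL vitamin E, with fresh conditioned medium each day for 4 days. The Bach1 knockout was shared by both MEF groups, so cell type, genotype and culture history cannot be told apart between Hepa1 cells and MEFs. Nothing in the labels says that replicates were separate cultures, so the p-values measure the spread between these libraries, which may be technical.

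Each library held 18582713 to 23397981 reads assigned to genes, so that 3 reads, the floor used for a count of 0, equalled 0.128 to 0.161 CPM, the reads of a gene scaled to a common library total. Albumin was at 0 in every MEF library, and the summed fibroblast markers were 398.52 to 510.26 CPM in Hepa1 libraries and 25227 to 28402 CPM in MEF libraries. Not every listed marker followed the cell type. Of the liver markers, Apoa1, Ttr and Serpina1a were at 0 in Hepa1 libraries too, and Trf was at 8.08 to 25.1 CPM in MEF libraries. Of the 10 fibroblast markers 9 were lower in Hepa1 cells in control medium and 1, Dcn, was higher. Dcn was at 257 to 350 CPM in Hepa1 libraries and 3.19 to 14.6 CPM in MEF libraries. Hepa1 ferroptotic replicate 3 held 18.1 CPM of Col1a2, a fibroblast collagen gene, against at most 1.17 CPM in the other Hepa1 libraries. MEF ferroptotic replicate 3 held 2.69 CPM of summed epithelial markers, against at most 0.574 CPM in the other MEF libraries. The calls of the histone genes, the sums by histone type and the counts over gene lists are also given without these libraries.

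The stem-loop was found in the annotated transcripts of 44 of the 67 genes (65.7%), against 24 of 21834 other protein-coding genes (0.11%). It was searched as a stem of 6 bases that starts with GG, a loop of 4 bases that starts with TTT, and the reverse complement of the stem. Only 6 different sequences of 16 bases occurred, and the following are shown because they belong to the genes described below or differ in the stem or the loop. They are read from GENCODE M21 transcripts (GRCm38), 5′ to 3′ on the strand of the gene, with the stem-loop in capitals and the flanks in lower case.
Hist1h1c: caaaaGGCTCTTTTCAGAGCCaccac
Hist1h1d: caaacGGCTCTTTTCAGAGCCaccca
Hist1h2ac: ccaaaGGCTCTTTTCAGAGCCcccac
Hist3h2a: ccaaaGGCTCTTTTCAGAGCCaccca
Hist2h3c2: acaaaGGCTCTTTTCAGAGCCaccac
Hist1h3e: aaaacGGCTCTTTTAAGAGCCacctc
Hist1h4h: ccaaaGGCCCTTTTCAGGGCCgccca
Hist1h4i: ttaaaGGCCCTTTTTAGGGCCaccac
Hist1h4b: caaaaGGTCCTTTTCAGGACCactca
The H1, H2A and H3 genes of this set had the same stem, and the H4 genes had others. Hist1h2bc and Hist2h2be, both H2B genes, had no such stem-loop in their annotated transcripts.

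Few of these genes were read at all. Over the 12 libraries, 19 of the 67 had no read, 27 had 1 to 10 reads, 13 had 11 to 100 and 8 had more than 100. The 67 genes together took 67350 reads, 0.027% of all counts. Hist1h1c, a somatic H1 gene, held 55677 of those reads (82.7%), Hist1h2bc held 8677 (12.9%), and the other 65 genes shared 2996. The testis histone genes Hist1h2aa and Hist1h2ba had no read in any library, and Hist1h1t, the testis H1, had 4. A count of 0 allows up to the floor of 0.128 to 0.161 CPM in a library, and the intervals and floors given here cover counting error only.

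Most reads fell on genes with long annotated transcripts. The 18 genes with more than 1000 bases of annotated exon held 66974 reads with a median of 79 a gene, and all 8 genes above 100 reads were among them. The 49 genes of at most 1000 bases held 376 reads with a median of 3 a gene and a maximum of 88 (Hist1h4i). Of the long genes 3 nevertheless had no read in any library (Hist1h2br, Hist1h3f and Hist2h3c1).

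**Figure D1:**
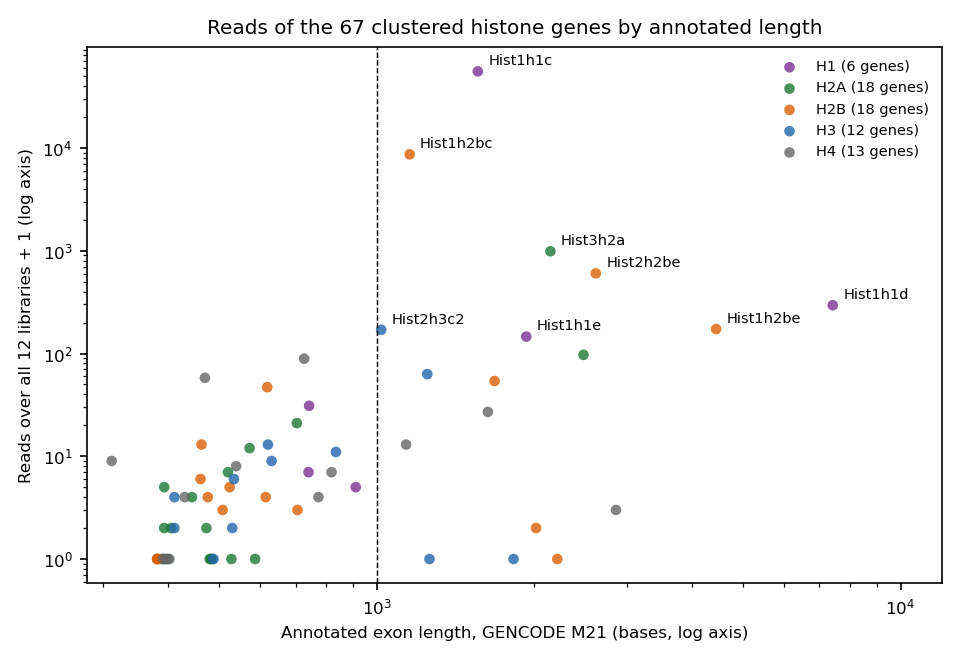
Reads of each of the 67 genes summed over 12 libraries, plus 1 (vertical log axis), against annotated exon length in bases (horizontal log axis), coloured by histone type, with a dashed line at 1000 bases. Hist1h1c at 55677 reads and Hist1h2bc at 8677 stand far above the rest, and no gene left of the line passes 100 reads.

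The distance between the stem-loop and the annotated transcript end went the same way. In 18 genes the transcript ran more than 300 bases past the stem-loop, a limit chosen after the values were seen, and these held 57802 reads with a median of 57.5. In 26 genes it ended within 300 bases, and these held 204 reads with a median of 3 and a maximum of 57 (Hist1h4h). The annotated end lay 840 bases past the stem-loop in Hist1h1c, 1643 in Hist3h2a and 4884 in Hist1h1d. The 23 genes with no stem-loop held 9344 reads, and in 15 of them the annotated transcript was at most 500 bases long.

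RNAs known to lack a poly(A) tail had few reads in all groups. The 11 non-polyadenylated RNAs listed for comparison, among them Rn7sk, Rmrp and Terc, summed to 72 reads in Hepa1 ferroptotic and 49 reads in Hepa1 control libraries, and to 21 reads in MEF ferroptotic and 31 reads in MEF control libraries. Rmrp, Rpph1, Terc, Rnu11, Rnu12 and Rn7s2 were at 0 in every library. Rn7sk, a small nuclear RNA, had 22, 26 and 17 reads in Hepa1 ferroptotic libraries, against 11, 14 and 14 reads in Hepa1 control libraries, and its log2 fold change was 0.70 ± 0.29 (SE, edgeR adjusted p = 0.0414). It had 9, 3 and 7 reads in MEF ferroptotic libraries, against 18, 8 and 5 reads in MEF control libraries, too few for the test within MEFs, and its response differed between the cell types by 1.51 ± 0.56 on the log2 scale (Hepa1 minus MEF, SE, edgeR adjusted p = 0.0251). Whether the libraries were selected for poly(A) is not given in the sources used here, and the part of RNA capture in the levels of the histone genes was not tested.

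Copies and overlaps limited what could be counted. In 34 of the 67 genes more than 50% of the 50-base stretches of the transcript also occurred in another annotated gene. These genes held 255 reads in all, and 15 of them had none. Hist2h3c2, with 169 of the 255 reads, shared 63.5% of its stretches. Of all 67 genes, 24 overlapped another annotated gene, 7 of them on the same strand. The strand setting of the counting is not given in the sources used here, so reads of overlapping genes cannot be told apart in either orientation.

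Linker histone genes held most of the reads. Per length, over the 12 libraries, the mean level was 141 RPKM, which is CPM per kilobase of annotated exon, for Hist1h1c, 28.8 for Hist1h2bc, 1.83 for Hist3h2a and 0.94 for Hist2h2be, and every other gene was at 0.633 RPKM or less. By CPM Hist1h1d had rank 5, but per length it was at 0.16 RPKM over 7425 annotated bases, below Hist2h3c2 at 0.633 RPKM and Hist1h4i at 0.462. Hist2h2be had the only transcript among these with no shared 50-base stretch.

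In Hepa1 cells, medium from ferroptotic cells was accompanied by more Hist1h2bc and Hist1h1d and by less Hist3h2a. Only 6 of the 67 genes had enough reads to be tested, and of these 2 were higher, 1 was lower and 3 were not called by edgeR's quasi-likelihood test at an adjusted p of 0.05. Of the 13169 genes tested 29.3% were higher and 28.8% were lower (58.1% in either direction), so the count of histone genes is not set apart from the background. In bulk RNA, a change in the number of cells that express a gene and a change in RNA per cell cannot be told apart.

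Hist1h2bc, an H2B gene at chr13:23684199-23692908 on the plus strand (GRCm38), had 15.3, 13.2 and 14.9 CPM in Hepa1 ferroptotic libraries, against 4.88, 4.76 and 6.29 CPM in Hepa1 control libraries. All ferroptotic values lay above all control values. The log2 fold change was 1.40 ± 0.11 (SE, n = 3 a group, edgeR adjusted p = 5.79e-12). Without Hepa1 ferroptotic replicate 3 it was 1.38 (edgeR adjusted p = 1.49e-10).

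Hist1h1d, a somatic H1 gene at chr13:23553262-23560686 on the plus strand, had 2.13, 1.88 and 1.77 CPM in Hepa1 ferroptotic libraries, against 1.32, 0.551 and 0.773 CPM in Hepa1 control libraries. The groups did not overlap, and the log2 fold change was 1.08 ± 0.26 (SE, edgeR adjusted p = 0.0008). These values rest on 35 to 42 reads a library in ferroptotic medium and 11 to 26 in control medium. Without Hepa1 ferroptotic replicate 3 the log2 fold change was 1.14 (edgeR adjusted p = 0.0015).

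Hist3h2a, the H2A gene of the Hist3 cluster at chr11:58954685-58956830, had 3.40, 2.80 and 2.80 CPM in Hepa1 ferroptotic libraries, against 3.91, 3.81 and 4.02 CPM in Hepa1 control libraries. The log2 fold change was -0.43 ± 0.15 (SE, edgeR adjusted p = 0.0161). The call was lost with the DESeq2 Wald test (adjusted p = 0.0738), without ferroptotic replicate 2 (edgeR adjusted p = 0.0577) and without ferroptotic replicate 3 (edgeR adjusted p = 0.0627). Its exons overlap Trim17 over 708 bases on the same strand.

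Hist1h1c, at chr13:23738808-23740367 on the plus strand, had 169, 174 and 177 CPM in Hepa1 ferroptotic libraries, against 167, 165 and 184 CPM in Hepa1 control libraries. The groups overlapped, and the log2 fold change was -0.03 ± 0.04 (SE, edgeR adjusted p = 0.504). Hist2h2be, another H2B gene, had 3.397, 3.713 and 2.7 CPM in Hepa1 ferroptotic libraries, against 3.606, 3.807 and 3.555 CPM in Hepa1 control libraries (log2 fold change -0.21 ± 0.15 (SE), edgeR adjusted p = 0.248). Hist1h2be, an H2B gene whose exons overlap Hist1h1e over 496 bases on the same strand, had 0.963, 0.646 and 0.491 CPM in Hepa1 ferroptotic libraries, against 0.356, 0.551 and 0.464 CPM in Hepa1 control libraries. Its log2 fold change was 0.56 ± 0.35 (SE, edgeR adjusted p = 0.182), and the groups overlapped.

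In MEFs, medium from ferroptotic cells was accompanied by higher summed CPM of the H1, H2A, H2B, H3 and H4 genes, given below. Of the 67 genes 11 could be tested, and 10 were higher, none was lower and Hist2h2be was not called. Of the 14441 genes tested in MEFs 27.8% were higher and 27.2% were lower (55% in either direction). With no scaling beyond total counts, 5211 genes were higher and 2957 lower in MEFs, against 4009 higher and 3934 lower with the scaling used. Control libraries alone would have carried 4 of the 11 past the filter on low counts (Hist1h1c, Hist1h2bc, Hist2h2be and Hist3h2a). The other 7 passed through the ferroptotic libraries, where they were high, so the count of 10 and the p-values of those 7 are given as descriptions. Every H3 and H4 gene tested was among those 7.

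**Figure D2:**
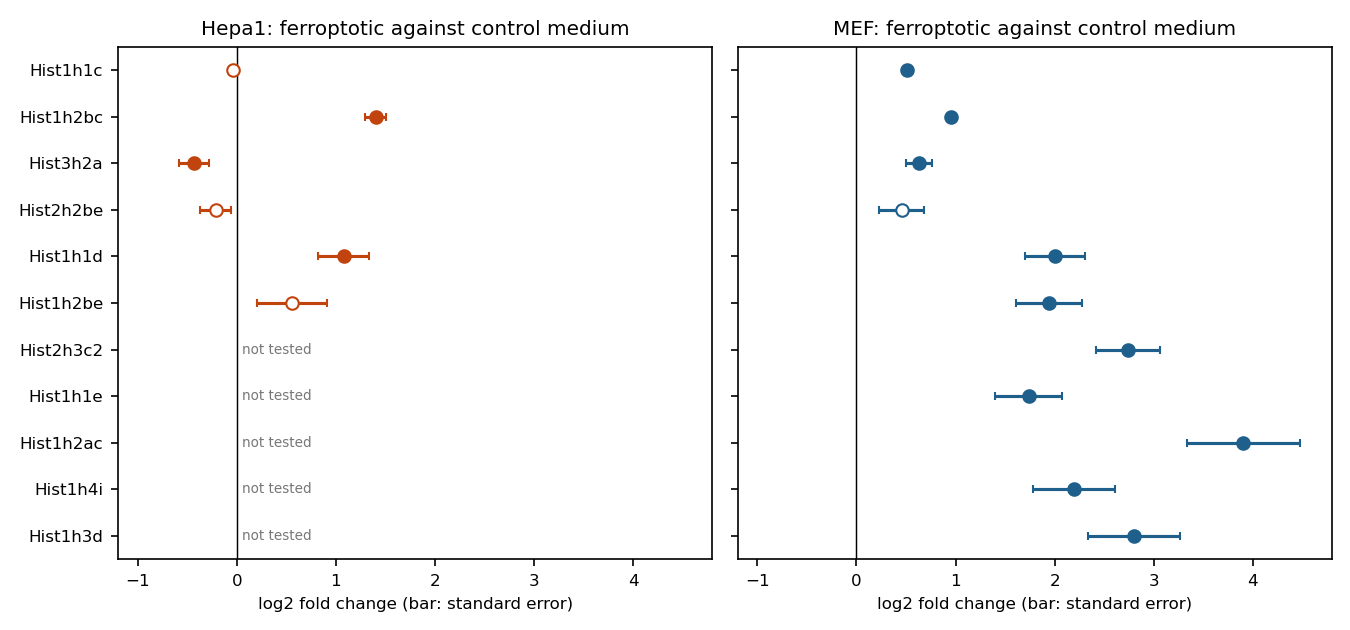
Log2 fold change of ferroptotic over control medium (horizontal axis, bars are standard errors) for the histone genes tested in Hepa1 cells and in MEFs, filled where the edgeR adjusted p was under 0.05. All MEF points lie right of 0, and the Hepa1 points fall on both sides. The MEF point of Hist1h2ac rests on 3 control reads.

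Among the H1 genes, Hist1h1c had 321, 311 and 330 CPM in MEF ferroptotic libraries, against 212, 216 and 216 CPM in MEF control libraries. Every ferroptotic value lay above every control value, and the log2 fold change was 0.51 ± 0.03 (SE, n = 3 a group, edgeR adjusted p = 1.09e-21). Hist1h1d had 1.67, 1.51 and 1.54 CPM in MEF ferroptotic libraries, against 0.612, 0.221 and 0.286 CPM in MEF control libraries (log2 fold change 2.00 ± 0.30 (SE), edgeR adjusted p = 1.45e-07). Hist1h1e, another somatic H1 gene, had 1.06, 1.37 and 0.855 CPM in MEF ferroptotic libraries, against 0.33, 0.309 and 0.286 CPM in MEF control libraries. Its log2 fold change was 1.74 ± 0.34 (SE, edgeR adjusted p = 1.78e-05), on 20 to 30 reads a ferroptotic library and 6 or 7 a control library.

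Among the H2A genes, Hist3h2a had 4.99, 6.13 and 5.17 CPM in MEF ferroptotic libraries, against 3.438, 3.002 and 3.619 CPM in MEF control libraries. It was higher here, with a log2 fold change of 0.63 ± 0.13 (SE, edgeR adjusted p = 5.11e-05), where in Hepa1 cells it had been lower. Hist1h2ac, at chr13:23681467-23683948 on the minus strand, had 21, 12 and 21 reads in MEF ferroptotic libraries, against 0, 2 and 1 reads in MEF control libraries. The ratio of CPM was 17.5, with an exact 95% counting interval of 5.67 to 87.3, and the edgeR adjusted p was 5.81e-08.

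Among the H2B genes, Hist1h2bc had 75, 74.4 and 78.5 CPM in MEF ferroptotic libraries, against 38.8, 35.3 and 38.3 CPM in MEF control libraries. The log2 fold change was 0.95 ± 0.04 (SE, edgeR adjusted p = 5.67e-26), and the groups lay far apart. Hist1h2be had 0.879, 1.42 and 1.45 CPM in MEF ferroptotic libraries, against 0.236, 0.309 and 0.381 CPM in MEF control libraries (log2 fold change 1.94 ± 0.33 (SE), edgeR adjusted p = 1.82e-06). Hist2h2be had 1.80, 1.42 and 1.97 CPM in MEF ferroptotic libraries, against 0.848, 1.46 and 1.29 CPM in MEF control libraries. Its groups overlapped, with a log2 fold change of 0.46 ± 0.23 (SE) and an edgeR adjusted p of 0.0824, and it passed the threshold without MEF control replicate 2 (edgeR adjusted p = 0.0384) or MEF ferroptotic replicate 2 (edgeR adjusted p = 0.0452).

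Among the H3 genes, Hist2h3c2 at chr3:96238108-96239127 had 40, 31 and 54 reads in MEF ferroptotic libraries, against 9, 4 and 4 reads in MEF control libraries. The log2 fold change was 2.74 ± 0.32 (SE, edgeR adjusted p = 2.39e-10). Hist1h3d at chr13:23575763-23577011 had 19, 22 and 14 reads in MEF ferroptotic libraries, against 2, 3 and 2 reads in MEF control libraries (log2 fold change 2.80 ± 0.46 (SE), edgeR adjusted p = 8.04e-07). Hist1h3d had no read in any of the 6 Hepa1 libraries.

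Among the H4 genes, whose products are the most alike of the family, Hist1h4i at chr13:22040636-22041362 had 19, 13 and 29 reads in MEF ferroptotic libraries, against 6, 4 and 2 reads in MEF control libraries. The log2 fold change was 2.20 ± 0.41 (SE, edgeR adjusted p = 9.94e-06). Hist1h4h was not tested in MEFs. It had 11, 6 and 9 reads in MEF ferroptotic libraries, against 2, 0 and 1 reads in MEF control libraries, a ratio of CPM of 8.41 with an exact 95% counting interval of 2.58 to 43.4. In Hepa1 cells the same gene had 4, 3 and 2 reads in ferroptotic libraries, against 5, 6 and 8 reads in control libraries. Without MEF ferroptotic replicate 3 each of the 10 genes called in MEFs kept its call, with log2 fold changes of 0.49 for Hist1h1c, 0.93 for Hist1h2bc and 0.67 for Hist3h2a among the abundant ones. The called genes other than these had passed the filter through the ferroptotic libraries, where they were high, so their kept calls are a description.

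**Figure D3:**
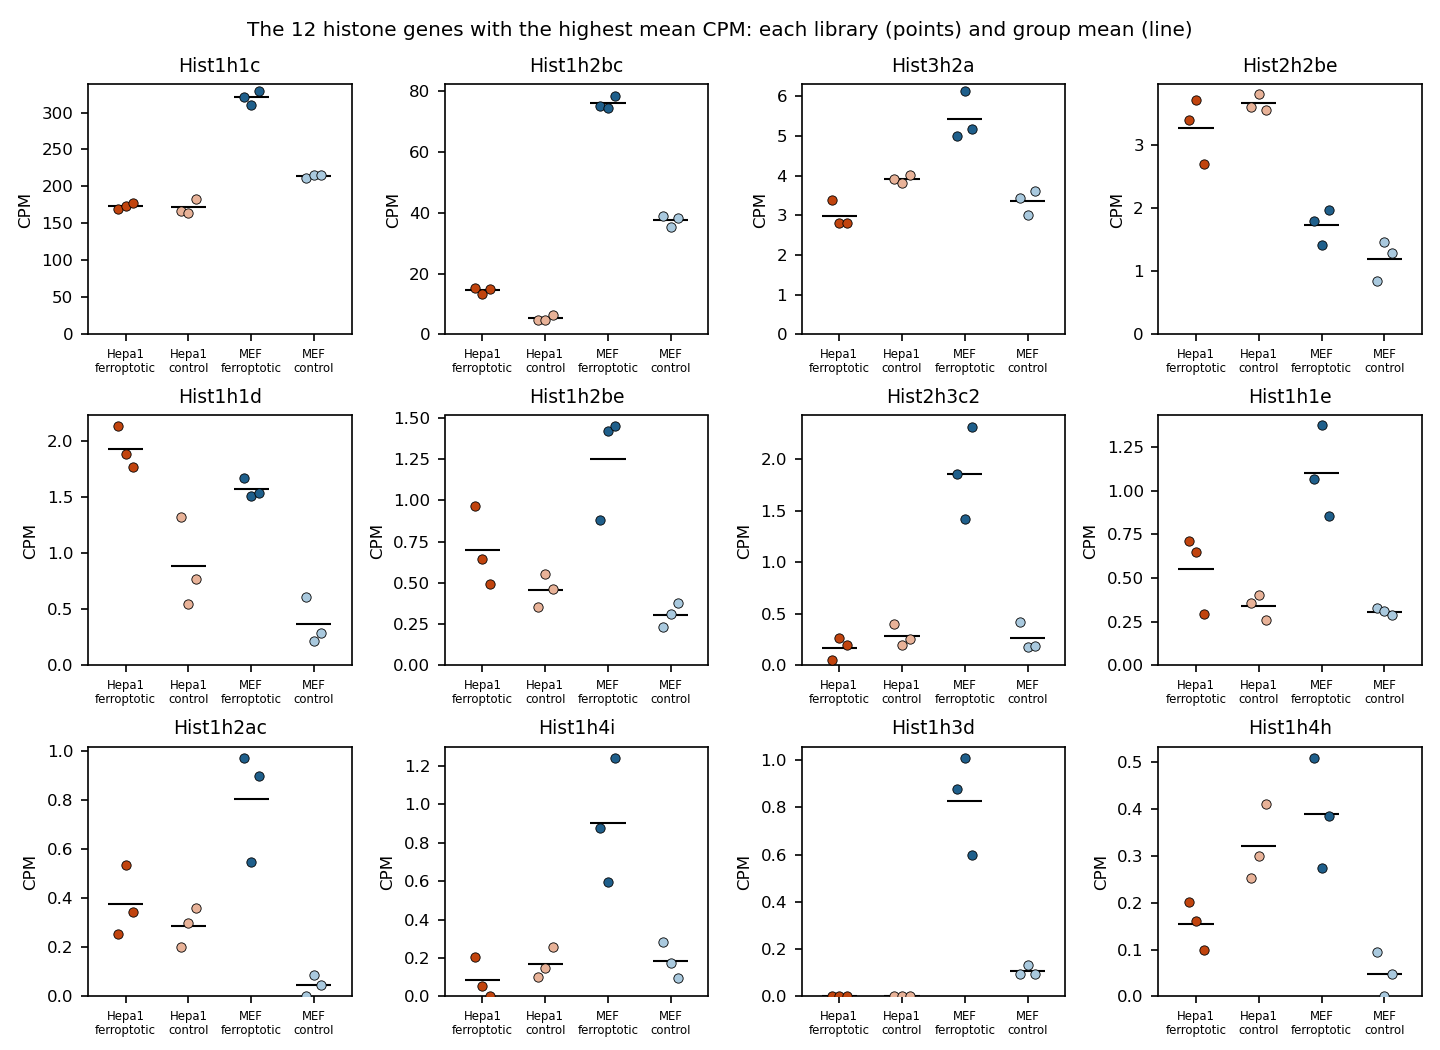
CPM on total counts of the 12 histone genes with the highest mean, 1 panel a gene with its own linear axis from 0, as points for each library and a line for the group mean (n = 3 a group). MEF ferroptotic libraries are the highest group for Hist1h1c at 311 to 330 CPM and for Hist1h2bc at 74.4 to 78.5 CPM, and Hepa1 libraries are at 0 for Hist1h3d.

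The genes too low for the test were counted by direction alone. In Hepa1 cells 61 of the 67 were not tested, and 35 of these had a read. Their mean CPM was higher in ferroptotic medium for 25 and lower for 10 (71.4% higher), where 54.3% of all untested genes with a read were higher. They summed to 179 reads in Hepa1 ferroptotic and 120 reads in Hepa1 control libraries. Hist1h2bh, among them, had 0.659, 0.7 and 0.491 CPM in Hepa1 ferroptotic libraries, against 0.152, 0.2 and 0 CPM in Hepa1 control libraries. Without Hepa1 ferroptotic replicate 3 it could be tested, with a log2 fold change of 2.41 (edgeR adjusted p = 0.000951). That call is a description, since the gene was high only in the ferroptotic libraries. In MEFs 56 were not tested and 27 of these had a read, with 24 higher and 3 lower (88.9% higher), where 58.4% of all untested genes with a read were higher. They summed to 162 reads in MEF ferroptotic and 54 reads in MEF control libraries. Hist1h2bg, an H2B gene, held 11, 9 and 10 reads in MEF ferroptotic libraries, against 0, 5 and 2 reads in MEF control libraries. Hist1h2ad, an H2A gene, held 11 reads in MEF ferroptotic libraries and none in any other group.

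Summing each histone type avoids the trade of assigned reads between copies of 1 type. It does not recover reads that were assigned to no gene, nor cover overlaps across types such as Hist1h2be with Hist1h1e. In MEFs the summed H3 genes averaged 3.38 ± 0.398 CPM in ferroptotic medium and 0.498 ± 0.222 CPM in control medium (SD, n = 3 each, scaled by the trimmed mean of M values, TMM). The H4 genes averaged 1.99 ± 0.554 CPM in MEF ferroptotic and 0.593 ± 0.202 CPM in MEF control libraries. The H2B genes averaged 94.2 ± 2.65 CPM in MEF ferroptotic and 48.6 ± 1.53 CPM in MEF control libraries. The H2A genes averaged 7.77 ± 0.496 CPM in MEF ferroptotic and 4.43 ± 0.348 CPM in MEF control libraries, and the H1 genes 382 ± 10.1 CPM in MEF ferroptotic and 267 ± 5.13 CPM in MEF control libraries. For all 5 types the 3 ferroptotic libraries lay above the 3 control libraries. These sums largely repeat single genes. In MEF ferroptotic libraries Hist1h1c held 21447 of 21647 H1 reads, Hist1h2bc 5085 of 5338 H2B reads and Hist3h2a 363 of 440 H2A reads. Hist2h3c2 held 125 of 192 H3 reads and Hist1h4i 61 of 113 H4 reads there. The other genes of the types held 200 H1, 253 H2B, 77 H2A, 67 H3 and 52 H4 reads. In MEF control libraries those other genes held 53, 111, 14, 9 and 19 reads in that order. Without MEF ferroptotic replicate 3, a choice made after seeing the data, the other 2 MEF ferroptotic libraries averaged 3.18 CPM for H3, 1.85 for H4, 92.7 for H2B, 7.86 for H2A and 377 for H1.

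In Hepa1 cells the sums moved in different directions. The H2B genes averaged 15.7 ± 0.929 CPM in Hepa1 ferroptotic and 8.14 ± 0.705 CPM in Hepa1 control libraries, and Hist1h2bc made up most of both. The H2A genes averaged 2.90 ± 0.203 CPM in Hepa1 ferroptotic and 3.56 ± 0.172 CPM in Hepa1 control libraries. Hist3h2a held 176 of the 209 H2A reads in Hepa1 ferroptotic libraries and 231 of the 250 in Hepa1 control libraries, while the other H2A genes held 33 reads in Hepa1 ferroptotic and 19 reads in Hepa1 control libraries, so the lower sum is that of Hist3h2a. The H1 genes averaged 143 ± 4.57 CPM in Hepa1 ferroptotic and 145 ± 9.58 CPM in Hepa1 control libraries. The H3 genes averaged 0.402 ± 0.0325 CPM in Hepa1 ferroptotic and 0.341 ± 0.0712 CPM in Hepa1 control libraries, and the H4 genes 0.388 ± 0.145 CPM in Hepa1 ferroptotic and 0.57 ± 0.181 CPM in Hepa1 control libraries. For H1, H3 and H4 the libraries of both media overlapped. Without Hepa1 ferroptotic replicate 3 the other 2 Hepa1 ferroptotic libraries averaged 15.7 CPM for H2B, 2.99 for H2A, 141 for H1, 0.401 for H3 and 0.461 for H4. Without Hist1h1c and Hist1h2bc, the remaining 65 genes summed to 13.3, 12.4 and 10.2 CPM on total counts in Hepa1 ferroptotic libraries, against 11.07, 10.77 and 10.97 CPM in Hepa1 control libraries. The same 65 genes summed to 17.5, 17.8 and 18.4 CPM in MEF ferroptotic libraries, against 7.11, 6.71 and 7.10 CPM in MEF control libraries.

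**Figure D4:**
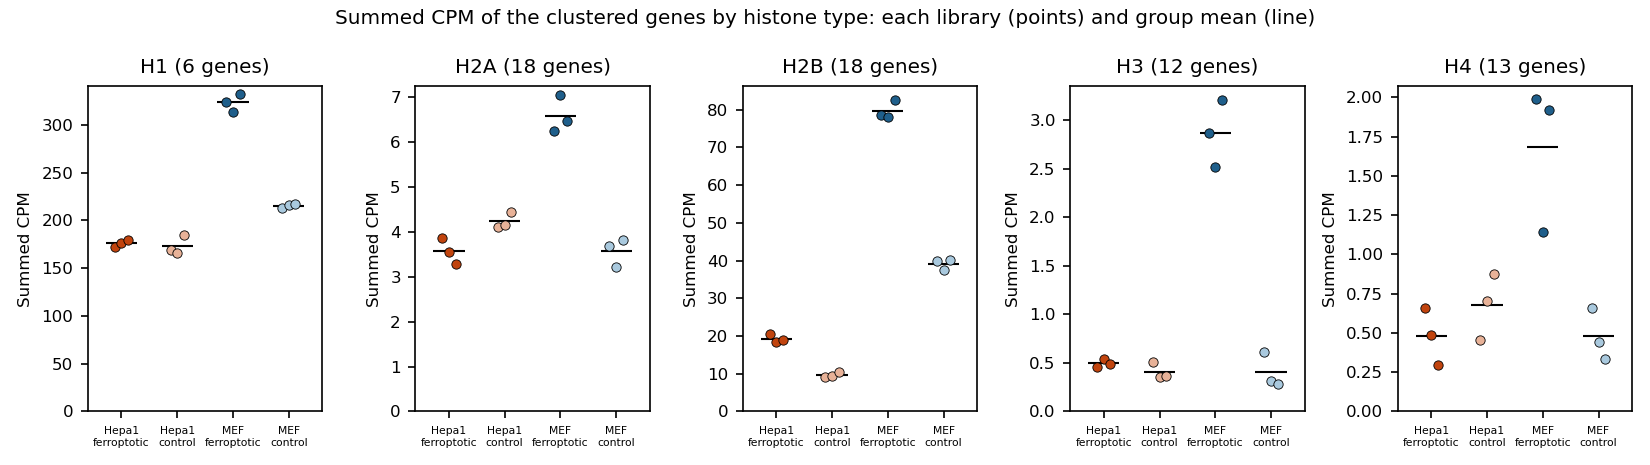
Summed CPM on total counts of the clustered genes by histone type, 1 panel a type with its own linear axis from 0, as points for each library and a line for the group mean (n = 3 a group). In MEFs every ferroptotic library exceeds every control library for all 5 types, as in the H3 panel with 2.52 to 3.21 CPM against 0.286 to 0.612 CPM, and in Hepa1 cells this holds for H2B.

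The responses of the cell types were compared directly by the difference of the log2 fold changes, Hepa1 minus MEF, in a fit of all 12 libraries. Of the 12 histone genes tested, 1 had a higher difference (Hist1h2bc) and 7 a lower one, beside 23.3% higher and 20.9% lower (44.2% in either direction) among the 15627 genes tested. Of the 12, only Hist1h1c, Hist1h2bc, Hist2h2be and Hist3h2a passed the filter on low counts in all 4 groups. Hist1h1e, Hist1h2ac, Hist1h3d, Hist1h4i and Hist2h3c2 passed it in all 3 libraries only in the MEF ferroptotic group, where they were high. Hist1h2bh did so only in the Hepa1 ferroptotic group, and Hist1h2be only in both ferroptotic groups. Counts from this fit, and the p-values of these genes for the difference, are therefore given as descriptions. Hist1h2bc differed by 0.45 ± 0.11 (SE, edgeR adjusted p = 0.000856). Hist1h1c differed by -0.54 ± 0.05 (SE, edgeR adjusted p = 1.66e-11) and Hist3h2a by -1.05 ± 0.20 (SE, edgeR adjusted p = 2.16e-05).

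Among the low genes, Hist2h3c2 differed by -3.52 ± 0.71 (SE, edgeR adjusted p = 5.53e-05) and Hist1h4i by -3.18 ± 0.94 (SE, edgeR adjusted p = 0.00471). In Hepa1 cells Hist2h3c2 had 1, 5 and 4 reads in ferroptotic libraries, against 8, 4 and 5 reads in control libraries, and Hist1h4i had 4, 1 and 0 reads in ferroptotic libraries, against 2, 3 and 5 reads in control libraries. Hist1h2ac differed by -3.59 ± 0.83 (SE, edgeR adjusted p = 0.000352), a fitted value that rests on the 3 reads of the MEF control libraries. The differences of Hist1h2be (-1.38 ± 0.52, SE, edgeR adjusted p = 0.0288) and Hist2h2be (-0.67 ± 0.27, SE, edgeR adjusted p = 0.0433) were lost with the DESeq2 Wald test (adjusted p = 0.0717 and 0.0986), and without any of several single libraries, among them Hepa1 ferroptotic replicate 3 (edgeR adjusted p = 0.0789 and 0.113) and MEF control replicate 1 (edgeR adjusted p = 0.0792 and 0.187). Hist1h1d differed by -0.92 ± 0.43 (SE, edgeR adjusted p = 0.0822), and it passed the threshold without Hepa1 control replicate 2 (edgeR adjusted p = 0.0275) or MEF control replicate 1 (edgeR adjusted p = 0.0176). No difference is given for Hist1h3d, which had no read in Hepa1 cells. Of the 8 called differences 6 kept their call without Hepa1 ferroptotic replicate 3, and 6 without MEF ferroptotic replicate 3, where Hist1h2be and Hist2h2be lost theirs again (edgeR adjusted p = 0.064 and 0.134).

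Levels were also set between cell types within each medium. In control medium, Hist1h2bc was lower in Hepa1 cells than in MEFs by a log2 fold change of -3.38 ± 0.08 (SE, edgeR adjusted p = 6.79e-36), and Hist1h1c by -0.88 ± 0.04 (SE, edgeR adjusted p = 5.70e-25). Hist2h2be was higher in Hepa1 cells, with a log2 fold change of 1.04 ± 0.20 (SE, edgeR adjusted p = 5.63e-06). Of the 12 tested histone genes 2 were higher and 4 lower, beside 40.7% higher and 46% lower (86.6% in either direction) among all genes tested. Hist1h2ac, the other gene called higher, had 17 reads in Hepa1 control libraries and 3 reads in MEF control libraries, and its call was lost without Hepa1 control replicate 3 or MEF control replicate 1 (edgeR adjusted p = 0.0529 and 0.0918). Hist1h3d, called lower, was listed at 0 reads in Hepa1 control libraries and had 7 in MEF control libraries.

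With no scaling beyond total counts the median log2 fold change of all genes between Hepa1 and MEF moved to 0.49 in control medium, against -0.08 with TMM, and the calls over all genes were 9101 higher and 5004 lower, against 6356 and 7181. Hist1h1c averaged 172 CPM in Hepa1 control and 214 CPM in MEF control libraries on total counts. With TMM it averaged 144 CPM and 266 CPM, so the size of its fold change depends on the scaling. Hist3h2a, called lower in Hepa1 control libraries at -0.34 ± 0.14 (SE, edgeR adjusted p = 0.0279), changed sign to 0.23 without scaling. Its call was also lost without Hepa1 control replicate 1 or 2, or MEF control replicate 1 or 3 (edgeR adjusted p = 0.0545, 0.065, 0.0651 and 0.11).

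In ferroptotic medium 9 histone genes were lower in Hepa1 cells than in MEFs and 1 was higher, of the 12 tested, beside 41.5% higher and 46.7% lower (88.2% in either direction) among all genes tested. Hist1h1e, Hist1h2ac, Hist1h3d, Hist1h4i and Hist2h3c2 passed the filter through MEF ferroptotic libraries, and Hist1h2bh through Hepa1 ferroptotic libraries. These are the groups in which they were high. The count, and the p-values and kept calls of these genes, are therefore descriptions. All 10 calls were kept without Hepa1 ferroptotic replicate 3 and without MEF ferroptotic replicate 3. Hist2h3c2 (log2 fold change -3.94 ± 0.36, SE, edgeR adjusted p = 1.19e-13), Hist1h4i (-3.85 ± 0.51, SE, edgeR adjusted p = 3.49e-09) and Hist1h2bc (-2.93 ± 0.06, SE, edgeR adjusted p = 2.23e-38) had the largest negative values with a fitted level above 0 in both cell types. Hist1h2bh, an H2B gene, was the gene that was higher. It had 13, 13 and 10 reads in Hepa1 ferroptotic libraries, against 2, 4 and 1 reads in MEF ferroptotic libraries (log2 fold change 1.96 ± 0.53 (SE), edgeR adjusted p = 0.000733). Hist2h2be, at 0.37 ± 0.18 (SE, edgeR adjusted p = 0.0561), passed the threshold without Hepa1 ferroptotic replicate 3 (edgeR adjusted p = 0.019) or MEF ferroptotic replicate 3 (edgeR adjusted p = 0.0402). Without scaling the median of all genes moved to 0.46 here, against -0.08 with TMM, with 9028 genes higher and 5109 lower, against 6491 and 7294.

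Hist1h2ac and Hist1h2bc are divergent neighbours whose annotated starts lie 251 bases apart, so the stretches before their starts are largely the same DNA. In MEFs both were higher in ferroptotic medium, and in Hepa1 cells Hist1h2bc was higher while Hist1h2ac had 5, 10 and 7 reads in ferroptotic libraries, against 4, 6 and 7 reads in control libraries. The 250 bases before the RefSeq start of Hist1h2ac (chr13:23683960-23684209, minus strand, GRCm38.p6) are shown for that reason, beside those of Hist1h1c (chr13:23738557-23738806, plus strand) and Hist1h4i (chr13:22041363-22041612, minus strand), genes of other types that were higher in MEFs. Capitals mark matches on either strand, at any position in the window, to TATAAA, to the pentamer CCAAT or to the octamer ATTTGCAT. TATAAA is the letters of a TATA box, but its distance to the start was not required, and other TATA-like stretches are not marked.
Hist1h2ac: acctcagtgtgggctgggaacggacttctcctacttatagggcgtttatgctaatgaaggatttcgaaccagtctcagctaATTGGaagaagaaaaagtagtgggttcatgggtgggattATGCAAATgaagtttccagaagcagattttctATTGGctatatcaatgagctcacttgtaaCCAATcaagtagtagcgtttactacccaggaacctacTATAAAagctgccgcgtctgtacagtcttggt
Hist1h1c: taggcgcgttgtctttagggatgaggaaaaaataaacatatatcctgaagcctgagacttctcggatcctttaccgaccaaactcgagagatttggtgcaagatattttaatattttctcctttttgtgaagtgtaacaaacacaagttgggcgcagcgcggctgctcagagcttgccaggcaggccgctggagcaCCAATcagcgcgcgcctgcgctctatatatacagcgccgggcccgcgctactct
Hist1h4i: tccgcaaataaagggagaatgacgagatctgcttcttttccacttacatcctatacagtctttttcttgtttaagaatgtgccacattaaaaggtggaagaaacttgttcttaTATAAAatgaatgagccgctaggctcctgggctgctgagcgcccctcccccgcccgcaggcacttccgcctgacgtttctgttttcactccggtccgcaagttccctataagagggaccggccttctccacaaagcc
RefSeq windows were found for 62 of the 67 genes. CCAAT was present in 51 of them (82.3%), against 33.8% of all 32851 windows, and in each of the 6 H1, 18 H2A and 16 H2B windows but in 3 of the 12 H4 windows. TATAAA was present in 29 (46.8%), against 12.4% of all windows. The octamer was present in 13 (21%), against 1.6% of all windows, with 7 of 18 H2A windows, 6 of 16 H2B windows and no H1, H3 or H4 window among them. These motifs are defined by letters alone, and overlap between matches to different motifs was not checked. A match is a description of the window, not of a bound site.

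Of 36 listed DNA replication genes, among them the MCM helicase, replication factor C and ribonucleotide reductase, 30 were higher in ferroptotic medium in Hepa1 cells, 1 (Mcm7) was lower and 5 were not called, beside 29.3% of all tested genes higher. Their median log2 fold change was 0.66 beside 0.0045 for all genes. In MEFs 22 of the 36 were higher, 1 (Gins4) was lower and 13 were not called, beside 27.8% of all tested genes higher, with a median of 0.34 beside 0.0033. Without ferroptotic replicate 3 of the cell type, 30 were higher and 0 lower in Hepa1 cells, and 23 were higher and 1 lower in MEFs. Among the most abundant, Dnmt1, the maintenance DNA methyltransferase, changed by 0.47 ± 0.04 in Hepa1 cells and 0.56 ± 0.04 in MEFs, and Rrm1, the large subunit of ribonucleotide reductase, by 0.55 ± 0.04 in Hepa1 cells and 0.34 ± 0.05 in MEFs (log2 ± SE, edgeR adjusted p at most 7.47e-09). Rfc1, a clamp loader subunit, was at 0.01 ± 0.04 in Hepa1 cells (edgeR adjusted p = 0.814) and rose by 0.29 ± 0.04 in MEFs (edgeR adjusted p = 9.23e-08), and Mcm2 was at 0.05 ± 0.04 in Hepa1 cells (edgeR adjusted p = 0.265) and rose by 0.35 ± 0.06 in MEFs (edgeR adjusted p = 3.18e-07). Whether the clustered genes and this list move together was not tested.

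Histone genes outside the clusters encode mostly replacement variants, many of them made also outside S phase. In Hepa1 cells 8 of the 10 tested were higher and 1 (H2afj) lower, with a median log2 fold change of 0.36, beside 29.3% higher and 28.8% lower among all tested genes. In MEFs 2 (H2afj and Cenpa) of 11 were higher and 2 (H3f3b and H1fx) lower, with a median of 0.00, beside 27.8% higher and 27.2% lower. Without ferroptotic replicate 3 of the cell type, 7 were higher and 1 lower in Hepa1 cells, and 2 were higher and 2 lower in MEFs. H2afj fell by 0.53 ± 0.06 on the log2 scale in Hepa1 cells (SE, edgeR adjusted p = 5e-08) and rose by 0.88 ± 0.06 in MEFs (SE, edgeR adjusted p = 3.67e-18). H1f0, the replacement linker histone of resting cells, rose by 0.33 ± 0.04 in Hepa1 cells (SE, edgeR adjusted p = 1.61e-08) and was at 0.01 ± 0.03 in MEFs (SE, edgeR adjusted p = 0.75). H3f3b, which encodes H3.3, changed by 0.08 ± 0.03 in Hepa1 cells and by -0.10 ± 0.03 in MEFs (SE, edgeR adjusted p = 0.0354 and 0.00139), and H2afy, which encodes macroH2A, by 0.26 ± 0.04 in Hepa1 cells (edgeR adjusted p = 1.67e-06) beside -0.07 ± 0.04 in MEFs (edgeR adjusted p = 0.145).

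**Figure D5:**
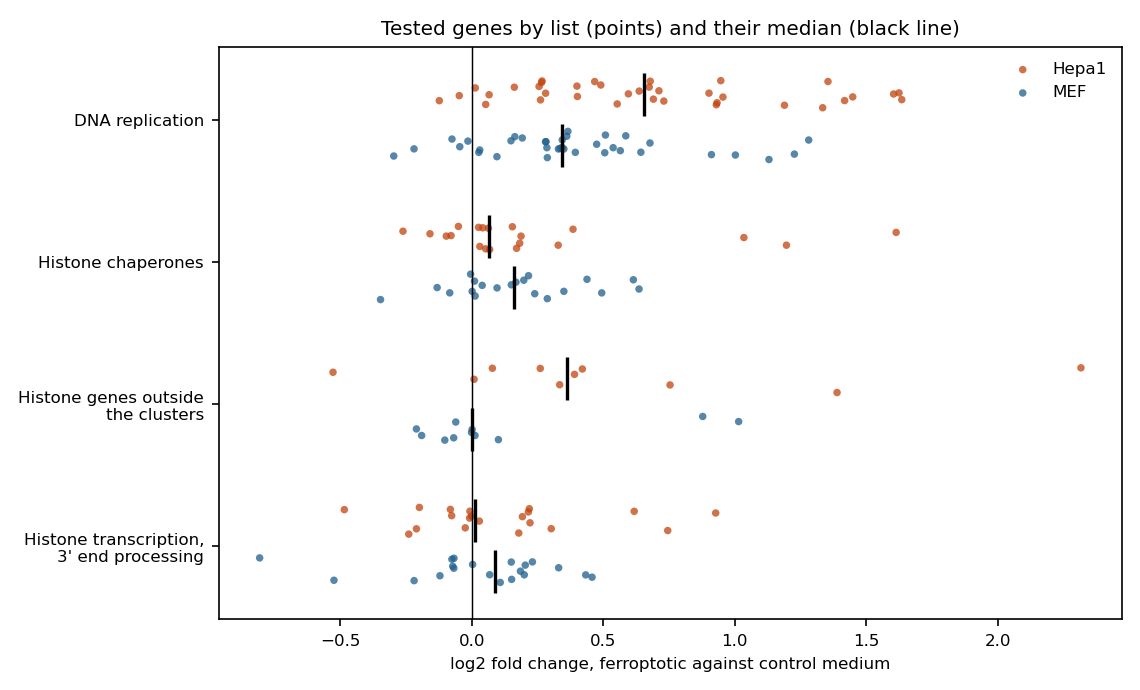
Log2 fold change of ferroptotic over control medium (horizontal axis) for the tested genes of 4 lists, as points for Hepa1 cells and MEFs, with a black line at each median. DNA replication genes have medians of 0.66 in Hepa1 cells and 0.34 in MEFs, and the histone genes outside the clusters 0.36 in Hepa1 cells and 0.00 in MEFs.

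Of 20 measured genes that act on histone transcription and RNA processing, 9 were higher and 4 lower in Hepa1 cells (median log2 fold change 0.01), and 7 were higher and 3 lower in MEFs (median 0.09). The share called was 65% in Hepa1 cells and 50% in MEFs, beside 58.1% and 55% of all genes tested there. Without ferroptotic replicate 3 of the cell type, 8 were higher and 4 lower in Hepa1 cells, and 6 were higher and 3 lower in MEFs. Slbp, which encodes the stem-loop binding protein, rose by 0.19 ± 0.07 in Hepa1 cells (SE, edgeR adjusted p = 0.0149) and was at 0.11 ± 0.06 in MEFs (SE, edgeR adjusted p = 0.139). Npat, the cyclin E substrate that activates clustered histone genes, was at -0.08 ± 0.05 in Hepa1 cells and -0.07 ± 0.05 in MEFs (SE, edgeR adjusted p = 0.203 and 0.187), and Casp8ap2 (FLASH), its partner in the histone locus body, at 0.03 ± 0.06 in Hepa1 cells and 0.15 ± 0.06 in MEFs (SE, edgeR adjusted p = 0.688 and 0.04). Srrt (ARS2), which binds the cap-binding complex, rose by 0.62 ± 0.04 in Hepa1 cells and 0.46 ± 0.04 in MEFs (SE, edgeR adjusted p = 3.39e-14 and 1.61e-15), and Upf1, a helicase of histone RNA decay, by 0.18 ± 0.04 in Hepa1 cells and 0.33 ± 0.03 in MEFs (SE, edgeR adjusted p = 0.000662 and 9.54e-13). Ncbp1, the large cap-binding subunit, was at -0.08 ± 0.04 in Hepa1 cells (SE, edgeR adjusted p = 0.0514) and rose by 0.15 ± 0.04 in MEFs (SE, edgeR adjusted p = 0.0016). Cpsf3, the endonuclease that cuts histone pre-RNA, was at -0.01 ± 0.04 in Hepa1 cells (SE, edgeR adjusted p = 0.883) and fell by 0.12 ± 0.04 in MEFs (SE, edgeR adjusted p = 0.00859).

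Of the 20 histone chaperones, which carry histones to and from DNA, 8 were higher and 3 lower in Hepa1 cells (median log2 fold change 0.07), and 11 were higher and 2 lower in MEFs (median 0.16). The share called was 55% in Hepa1 cells and 65% in MEFs, beside 58.1% and 55% of all genes tested there. Without ferroptotic replicate 3 of the cell type, 8 were higher and 2 lower in Hepa1 cells, and 9 were higher and 2 lower in MEFs. Ssrp1, a subunit of FACT, fell by 0.10 ± 0.03 in Hepa1 cells (SE, edgeR adjusted p = 0.0143) and was at 0.00 ± 0.03 in MEFs (SE, edgeR adjusted p = 0.905). Atrx, a remodeller that works with Daxx on H3.3, was at 0.03 ± 0.04 in Hepa1 cells (SE, edgeR adjusted p = 0.55) and rose by 0.44 ± 0.03 in MEFs (SE, edgeR adjusted p = 2.69e-17). Rbbp4 and Rbbp7, histone-binding proteins, were at 0.04 ± 0.03 and 0.03 ± 0.04 in Hepa1 cells (SE, edgeR adjusted p = 0.319 and 0.586), and Rbbp4 fell by 0.13 ± 0.03 while Rbbp7 rose by 0.20 ± 0.03 in MEFs (SE, edgeR adjusted p = 9.25e-05 and 2.71e-07).

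For the human counterparts of Hist1h1c, Hist1h2ac, Hist1h2bc and Hist2h2be, polyadenylated forms are described. In Hepa1 cells 1 of the 3 tested genes of this group was higher and none lower, beside 29.3% higher among all genes tested. In MEFs 3 of 4 were higher and none lower, beside 27.8% higher among all genes tested. The MEF count is a description, since Hist1h2ac passed the filter on low counts through the ferroptotic libraries, where it was high. Their summed CPM was 188 to 195 in Hepa1 ferroptotic and 173 to 194 in Hepa1 control libraries, and 387 to 411 in MEF ferroptotic and 251 to 256 in MEF control libraries. Most of each sum was Hist1h1c, at 169 to 177 CPM in Hepa1 ferroptotic and 165 to 184 CPM in Hepa1 control libraries. In MEFs it was at 311 to 330 CPM in ferroptotic and 212 to 216 CPM in control libraries.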

How the data were processed

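RNA-seq of 12 libraries was analysed from the deposited files, raw read counts per Ensembl gene made by the authors; the series table and the per-sample files differed in 0 values. The NEBNext Ultra II kit was used on 100 ng total RNA, per the labels' protocols. Per the submitters' processing notes, the tools were STAR 2.7.10a, HTSeq 0.9.1, Trimmomatic 0.39 and FastQC 0.11.9 with GRCm38 (mm10). Annotation release, strand setting and poly(A) selection: not given in the sources used here. HTSeq left 3.66 to 4.03% of each library ambiguous and 2.00 to 2.58% without a feature, and these stayed out of library sizes. A total of 55227 gene IDs were named with GENCODE M21, and 260 were not.

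Counts were filtered by expression, scaled by TMM and tested with edgeR 4.0.16 (R 4.3.3) quasi-likelihood F-tests with Benjamini-Hochberg adjustment over all genes tested, within each cell type for the medium and over all 12 libraries otherwise. Scripts were tested on simulated data. Alternatives were DESeq2 1.42.0 size factors and Wald test, no scaling, limma-voom 3.58.1, other filters, a replicate block, each replicate left out, and all libraries in the fit. Standard errors were the log2 fold change over the square root of F. Genes and lists were chosen with earlier results of these data known. Genes named with values were the 12 of highest mean CPM and those of largest called change at 1 CPM or more, with up to 4 of highest mean CPM a list plus Slbp, Npat and Casp8ap2; Hist1h2bh, Hist1h2bg, Hist1h2ad and the testis genes were added after their values were seen. Library values are CPM on total counts. Promoter windows and motifs came from RefSeq (GRCm38.p6).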

Additional observations from a re-analysis of the deposited data

Results flagged for a closer look

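The response to ferroptotic medium differed between Hepa1 cells and MEFs for 8 histone genes by edgeR's interaction test at an adjusted p under 0.05, beside 44.2% of all genes tested. Of these 8, Hist1h2ac, Hist1h4i and Hist2h3c2 passed the filter on low counts in every library of the MEF ferroptotic group only. That is the group where they were high. Hist1h2be passed it in every library of the ferroptotic groups only. The count, and the calls of these genes, are therefore descriptions. The difference of log2 fold changes, Hepa1 minus MEF, was 0.45 for Hist1h2bc, -0.54 for Hist1h1c, -0.67 for Hist2h2be, -1.05 for Hist3h2a, -1.38 for Hist1h2be, -3.18 for Hist1h4i, -3.52 for Hist2h3c2 and -3.59 for Hist1h2ac. Hist3h2a was called in opposite directions in the cell types, at -0.43 in Hepa1 cells and 0.63 in MEFs, and its Hepa1 call was lost without ferroptotic replicate 2 or 3. The calls of Hist2h2be and Hist1h2be were lost with the DESeq2 Wald test (adjusted p = 0.0986 and 0.0717) and without several single libraries, such as Hepa1 ferroptotic replicate 3 (edgeR adjusted p = 0.113 and 0.0789). Hist1h2ac, Hist1h4i and Hist2h3c2 had at most 10 reads in any Hepa1 library.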

How the results depend on the processing

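Of 844 values of single genes under alternatives, 787 kept their direction and side of the threshold, 32 lost the call, 12 gained one and 13 changed sign. The sign changes were Hist1h1c in Hepa1 cells (0.0131 without scaling, -0.066 to 0.0199 with each replicate left out) and, for Hepa1 against MEF in control medium, Hist1h2be (-0.0231 with DESeq2 size factors, -0.0238 with the DESeq2 Wald test, -0.0202 with limma-voom, -0.15 to 0.18 with each replicate left out), Hist3h2a (0.23), Hist2h3c2 (0.13) and Hist1h1e (0.13) without scaling, and Hist2h3c2 (-0.7348 to 0.0816 with each replicate left out). In ferroptotic medium Hist1h1d changed to 0.29 without scaling. Of these, Hist3h2a alone had been called, and the cause was not tested.

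The count of histone genes lower in Hepa1 cells was 0 with the DESeq2 Wald test (3 at an unadjusted p under 0.05 in either direction, with edgeR and with DESeq2). With 1 CPM in 3 libraries, which tests fewer genes, MEFs gave 5 higher, the difference of responses 4 lower, and Hepa1 against MEF 1 higher in control medium and 0 higher and 4 lower in ferroptotic medium. In ferroptotic medium Hepa1 against MEF gave 2 higher without scaling, and 2 higher and 16 lower with no filter. Leaving out each replicate gave 2 to 3 higher and 0 to 1 lower in Hepa1 cells, 10 to 11 higher and 0 lower in MEFs, 1 higher and 5 to 7 lower for the difference, 1 to 3 higher and 3 to 4 lower between cell types in control medium, and 1 to 2 higher and 9 lower in ferroptotic medium. The count of 0 lower in MEFs had 11 genes at an unadjusted p under 0.05 with edgeR and 10 with DESeq2, all higher.

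Same-numbered replicates showed no shared deviation (correlations -0.0585 to 0.0488). With so few libraries a group, this cannot show whether the numbers pair the libraries. With a replicate block, the difference of responses of Hist2h2be lost its call (-0.66, edgeR adjusted p = 0.0516). The block was fitted within each cell type with replicate 1 as its base. The Hepa1 against MEF values of that fit therefore compare the replicates numbered 1, not the group means. There 1 histone gene was higher in control medium, and Hist1h2ac and Hist3h2a (-0.21) were not called (edgeR adjusted p = 0.232 and 0.355). In ferroptotic medium Hist1h2be (-0.71) was not called (edgeR adjusted p = 0.149). These lost calls between cell types are not read as an effect of blocking. No other call of the named genes changed in the block fits.

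On plain CPM the summed H1 genes were at 176 in Hepa1 ferroptotic, 173 in Hepa1 control, 324 in MEF ferroptotic and 215 in MEF control libraries; over these groups H2A was at 3.56, 4.23, 6.58 and 3.57 and H2B at 19.3, 9.69, 79.8 and 39.2, and H3 was at 0.495 in Hepa1 ferroptotic and 2.86 in MEF ferroptotic libraries. Over genes of at most 1000 exon bases, which leaves out the abundant ones, H1 summed to 0.111, 0.0141, 0.387 and 0.173 CPM in that order. H2A summed to 0.153, 0.0286, 0.405 and 0.211, and H2B to 0.164, 0.129, 0.814 and 0.189. H3 summed to 0.262, 0.0993, 0.208 and 0.0386, and H4 to 0.306, 0.485, 1.67 and 0.401. These sums rest on few reads pooled over a group, namely 8, 1, 22 and 9 for H1 in that order. They were 11, 2, 23 and 11 for H2A and 12, 9, 46 and 10 for H2B. For H3 they were 19, 7, 12 and 2, and for H4 22, 34, 95 and 21. Without ferroptotic replicate 3 of the cell type, chosen after seeing the data, the sums moved by less than their SD, and of the list counts only that of DNA replication genes lower in Hepa1 cells moved by over 1.5 times, to 0. Depth limits genes with few reads a library, and ratios of single genes that rest on 3 reads or fewer in a group are given with counting intervals. The fitted difference of Hist1h2ac and the sums over short genes have no such interval.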
